A study of Mus musculus with 4 samples.

Results

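The AP-1 and immediate-early transcription factors were followed in immortalized mouse embryonic fibroblasts (MEF) with and without HMGA2. The group was named gene by gene and holds 10 genes, *Fos*, *Fosb*, *Fosl1*, *Fosl2*, *Jun*, *Junb*, *Jund*, *Atf3*, *Egr1* and *Myc*, of the 20711 protein-coding genes that could be placed in the deposited table. All 10 were found, and 9 of them, all but *Fosb*, reached a level of 1 RPKM in some library. This was also true of 10679 protein-coding genes, which are called expressed genes below. RPKM is the number of reads on a transcript per 1000 bases of its length and scaled to the mapped reads of the library. Levels can thus be set side by side between genes as far as the listed lengths hold.

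The study asked how the architectural chromatin protein HMGA2 acts in transcription induced by the cytokine TGFB1. Total RNA was sequenced from *Hmga2*+/+ (wild type) and *Hmga2*-/- MEF of C57BL/6 background, prepared from embryos at day 15.5, immortalized with SV40 and starved overnight in 1% FCS. Each genotype was then given water (Ctrl) or recombinant human TGFB1 at 10 ng/ml, and cells were taken after 24 h. The table holds 1 column of values for each of the 4 conditions. The study's methods speak of sequencing in duplicates of a single experiment but not of how they entered the table, so each column is treated here as 1 library. How many embryos or lines stand behind a genotype is not given in the sources used here, nor is the passage of each library. SV40 immortalization and starvation were used for all 4 libraries. The embryos, the immortalized lines and their passage may differ between the genotypes, and cannot be told apart from genotype here. With 1 library per condition no test across replicates could be made, and p-values are not given. The intervals below are 95% intervals that cover counting error only, and they compare libraries, not conditions. "Rose" and "fell" are used for a change of at least 1.5-fold, the threshold of the study's methods.

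AP-1 is a dimer of basic leucine zipper (bZIP) proteins: Jun proteins pair with each other or with Fos proteins, whereas Fos proteins need a Jun partner to bind DNA. Genes such as *Fos*, *Jun*, *Egr1*, *Atf3* and *Myc* are known as immediate-early genes because growth factors and stress switch them on within minutes, without new protein synthesis, through kinase cascades that act on factors already present at their promoters. AP-1 is a known partner of SMAD proteins, the transcription factors activated by the TGFB1 receptor, at several genes that TGFB1 induces. The time sampled here, 24 h, lies long after that first wave.

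The 4 libraries held between 56140000 and 57300000 mapped reads, and 3 reads on a transcript of 1000 bases stand for 0.0524 to 0.0534 RPKM. *Hmga2* checked the genotypes: its level was 14.8 RPKM in *Hmga2*+/+ Ctrl and 40.7 RPKM in *Hmga2*+/+ TGFB1, with 0 reads in both *Hmga2*-/- libraries, a count that allows up to 3 reads in each. The known TGFB1 targets *Smad7*, *Ctgf* and *Acta2* rose with TGFB1 in both genotypes, *Ctgf* from 13.2 to 173 RPKM and from 24.9 to 359 RPKM. All 10 fibroblast markers reached 1 RPKM in at least 1 library, *Lum* only in *Hmga2*+/+ Ctrl (1.08 RPKM). Their summed levels were 2340 to 2929 RPKM, against at most 8.14 RPKM for the summed endothelial, 5.77 for the epithelial, 1.66 for the leukocyte and 0.052 for the muscle markers. Of these lists, 2 of 4 endothelial markers (*Kdr*, *Tek*), 1 of 5 epithelial (*Krt19*) and 1 of 4 leukocyte markers (*Cd68*) reached 1 RPKM, and *Myod1*, *Myog* and *Ckm* were at 0 throughout. The epithelial sum was 2.62 and 2.96 RPKM in *Hmga2*+/+ and 5.33 and 5.77 RPKM in *Hmga2*-/- MEF, and the endothelial sum was 3.89 and 4.86 against 7.12 and 8.14 RPKM (Ctrl and TGFB1). The higher epithelial sum came from *Krt19* (1.90 and 4.93 RPKM in the Ctrl libraries), whereas *Epcam* (0.209 and 0.121) and *Krt18* (0.424 and 0.178) were lower in *Hmga2*-/- Ctrl. The part of these markers in the genotype differences below was not tested, and in bulk RNA fewer cells of a type and less RNA per cell cannot be told apart.

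The promoters of 5 of the genes are given first, since 4 of these genes rose with TGFB1 (*Jun*, *Junb*, *Fosb* and *Atf3*) and the other, *Fos*, did not. Each window runs from 250 bases before to 50 bases after the RefSeq start (assembly GRCm38.p6) and is written 5′ to 3′ on the gene's strand. Capitals mark the CRE half-site TGACG or its reverse complement CGTCA, to which ATF, CREB and some AP-1 dimers are known to bind as part of longer sites, the AP-1-like site TGACATCA, and the EGR site GCGGGGGCG.

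*Jun*, chr4:95052173-95052472, minus strand: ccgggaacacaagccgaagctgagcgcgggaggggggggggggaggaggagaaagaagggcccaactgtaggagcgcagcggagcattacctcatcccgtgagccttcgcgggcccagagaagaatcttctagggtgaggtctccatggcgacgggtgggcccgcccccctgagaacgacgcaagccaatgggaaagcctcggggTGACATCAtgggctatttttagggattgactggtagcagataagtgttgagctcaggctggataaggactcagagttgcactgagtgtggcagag
*Junb*, chr8:84978699-84978998, minus strand: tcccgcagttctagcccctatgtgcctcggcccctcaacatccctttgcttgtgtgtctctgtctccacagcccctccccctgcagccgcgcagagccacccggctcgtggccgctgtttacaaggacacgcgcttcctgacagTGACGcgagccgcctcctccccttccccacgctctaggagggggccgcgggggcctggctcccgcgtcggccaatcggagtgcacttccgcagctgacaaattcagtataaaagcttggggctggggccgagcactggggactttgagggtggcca
*Fosb*, chr7:19309996-19310295, minus strand: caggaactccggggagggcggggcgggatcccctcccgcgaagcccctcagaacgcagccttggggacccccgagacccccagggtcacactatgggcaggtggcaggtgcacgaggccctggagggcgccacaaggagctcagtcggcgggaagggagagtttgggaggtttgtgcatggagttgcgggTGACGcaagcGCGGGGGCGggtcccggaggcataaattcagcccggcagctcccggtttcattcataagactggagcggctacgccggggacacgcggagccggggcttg
*Atf3*, chr1:191183284-191183583, minus strand: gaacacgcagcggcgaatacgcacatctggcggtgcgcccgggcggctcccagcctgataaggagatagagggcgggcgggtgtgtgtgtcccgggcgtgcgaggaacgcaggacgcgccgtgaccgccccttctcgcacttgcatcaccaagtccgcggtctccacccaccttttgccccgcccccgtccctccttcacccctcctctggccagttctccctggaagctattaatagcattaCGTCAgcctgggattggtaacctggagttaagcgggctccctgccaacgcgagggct
*Fos*, chr12:85473640-85473939, plus strand: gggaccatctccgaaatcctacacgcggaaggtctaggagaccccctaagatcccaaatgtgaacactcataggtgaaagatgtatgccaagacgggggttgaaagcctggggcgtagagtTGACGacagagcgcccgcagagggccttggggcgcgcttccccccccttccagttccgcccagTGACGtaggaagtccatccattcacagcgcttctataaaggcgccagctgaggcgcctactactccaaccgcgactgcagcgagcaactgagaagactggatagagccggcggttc

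Of the 10 genes, 7 had an entry in the RefSeq promoter table. *Fosl1*, *Egr1* and *Myc* had none. Searched on both strands, the canonical AP-1 site TGACTCA was in none of the 7 windows and in 5.20% of the 32851 promoters of the table. The full CRE TGACGTCA (1.79% of all promoters), the E-box CACGTG (7.15%), the EGR site GCGTGGGCG (0.612%), the SMAD palindrome GTCTAGAC (0.213%) and the CArG box of the serum response factor SRF (1.63%) were in none of the 7 either. GCGGGGGCG, in 2.91% of all promoters, was present in *Fosb* and *Fosl2*. The CRE half-site and TGACATCA were added after the sequences had been seen. The half-site, in 20.8% of all promoters, was in 4 of the 7, with its first base at -129 and at -66 in *Fos*, -60 in *Fosb*, -106 in *Junb* and -7 in *Atf3*, and TGACATCA, in 3.62% of all promoters, began at -45 in *Jun*. The half-site was thus present both in genes that rose and in *Fos*, which did not. The *Atf3* window lies at a RefSeq start inside the gene body of the longest *Atf3* transcript, so it belongs to a shorter form, and the *Jund* window ends upstream of the annotated *Jund* start, so the sequence at that start was not searched. These are matches of letters within 300 bases, and no binding was measured here.

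After TGFB1, 7 of the 10 genes rose in *Hmga2*+/+ MEF and 7 rose in *Hmga2*-/- MEF, namely *Fosb*, *Fosl1*, *Jun*, *Junb*, *Atf3*, *Egr1* and *Myc* in both, and 0 fell in either. Among all 10679 expressed genes, 11.5% rose and 16.6% fell in *Hmga2*+/+ MEF, and 13.1% rose and 15.0% fell in *Hmga2*-/- MEF. A rise in both genotypes was found for 9.67% of genes and a fall in both for 12.6%. Over the 10 genes the median log2 change was 0.93 for *Hmga2*+/+ cells and 0.96 for *Hmga2*-/- cells, beside -0.04 and 0.01 over all expressed genes. *Fos*, *Fosl2* and *Jund* stood apart from the other members by their small changes, between -0.23 and 0.03 on the log2 scale.

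**Figure D1:**
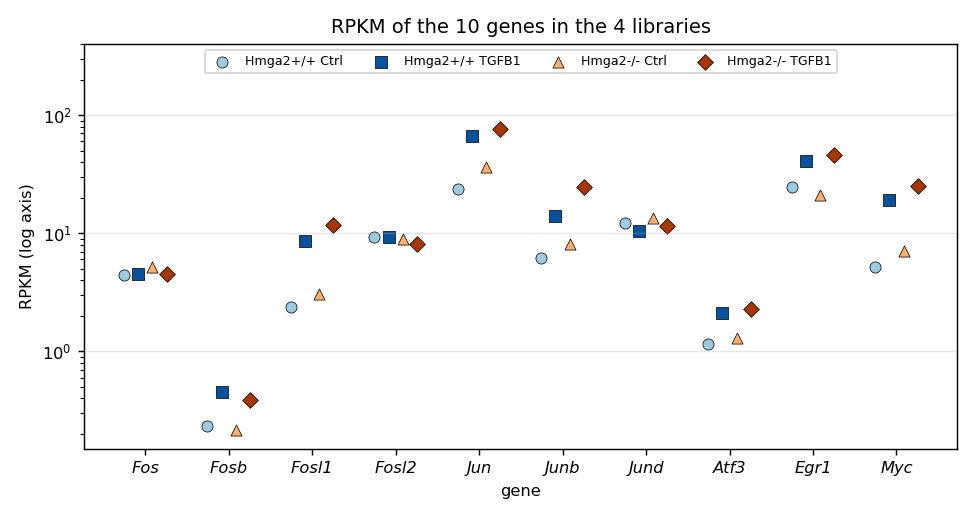
RPKM (log axis) of the 10 genes, with 1 point for each of the 4 libraries. In the 7 genes that rose the TGFB1 points lie above the Ctrl points, whereas *Fos*, *Fosl2* and *Jund* differ little between libraries. *Fosb* stays under 0.5 RPKM throughout.

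Among the Fos proteins, *Fosl1*, which encodes FRA1, had the widest range of all 10 genes. It lies on the plus strand of chromosome 19 (mm10, chr19:5447547-5455946) and overlaps *Ccdc85b* on the other strand, which counting by strand keeps apart. Its level was 2.38 RPKM in *Hmga2*+/+ Ctrl, 8.53 in *Hmga2*+/+ TGFB1, 3.09 in *Hmga2*-/- Ctrl and 11.7 in *Hmga2*-/- TGFB1, from 227 to 1135 reads. TGFB1 raised it 3.58-fold in *Hmga2*+/+ (log2 1.84, interval 1.63 to 2.06) and 3.80-fold in *Hmga2*-/- MEF (log2 1.93, interval 1.74 to 2.12). These changes were larger than those of 98.4% and 98.5% of expressed genes.

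*Fos*, the founding member of the family (chr12:85473890-85477273, plus strand), did not change with TGFB1 beyond the threshold. Its level was 4.46 and 4.56 RPKM in *Hmga2*+/+ Ctrl and TGFB1, and 5.15 and 4.55 RPKM in *Hmga2*-/- Ctrl and TGFB1. This is a log2 change of 0.03 (-0.14 to 0.21) for *Hmga2*+/+ and of -0.18 (-0.35 to -0.01) for *Hmga2*-/- MEF. The *Hmga2*-/- Ctrl library thus lay above the other 3, which were close to each other. *Fosl2*, which encodes FRA2 (chr5:32135801-32157842, plus strand), was the most abundant Fos gene in Ctrl and was equally flat, at 9.30, 9.23, 8.99 and 8.08 RPKM in the same order of libraries. Its TGFB1 response was -0.01 (-0.08 to 0.06) and -0.15 (-0.23 to -0.08) on the log2 scale.

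*Fosb* (chr7:19302696-19310051, minus strand) had the lowest level of the 10 genes. It had 0.232, 0.454, 0.216 and 0.387 RPKM, from 49, 98, 46 and 83 reads, in *Hmga2*+/+ Ctrl, *Hmga2*+/+ TGFB1, *Hmga2*-/- Ctrl and *Hmga2*-/- TGFB1. The log2 changes of 0.97 (0.46 to 1.496) and 0.84 (0.31 to 1.40) have intervals that reach below the 1.5-fold threshold of 0.585. With a pseudocount of 1 RPKM the changes of *Fosb* were 0.24 and 0.19, below the threshold. A shorter *Fosb* transcript gave 0.327, 0.572, 0.324 and 0.667 RPKM, with both TGFB1 libraries again above both Ctrl libraries.

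The composition of the Fos family moved accordingly. The summed level of the 4 genes was 16.4 RPKM in *Hmga2*+/+ Ctrl and 22.8 in *Hmga2*+/+ TGFB1, and 17.4 and 24.8 RPKM in the *Hmga2*-/- libraries. The share of *Fosl1* in this sum went from 14.5% to 37.5% in *Hmga2*+/+ and from 17.7% to 47.4% in *Hmga2*-/- MEF. *Fosl2* gave 56.8% and 40.5% in *Hmga2*+/+, and 51.5% and 32.6% in *Hmga2*-/- MEF. In *Hmga2*-/- TGFB1 alone, *Fosl1* was above *Fosl2*, at 11.7 against 8.08 RPKM.

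**Figure D2:**
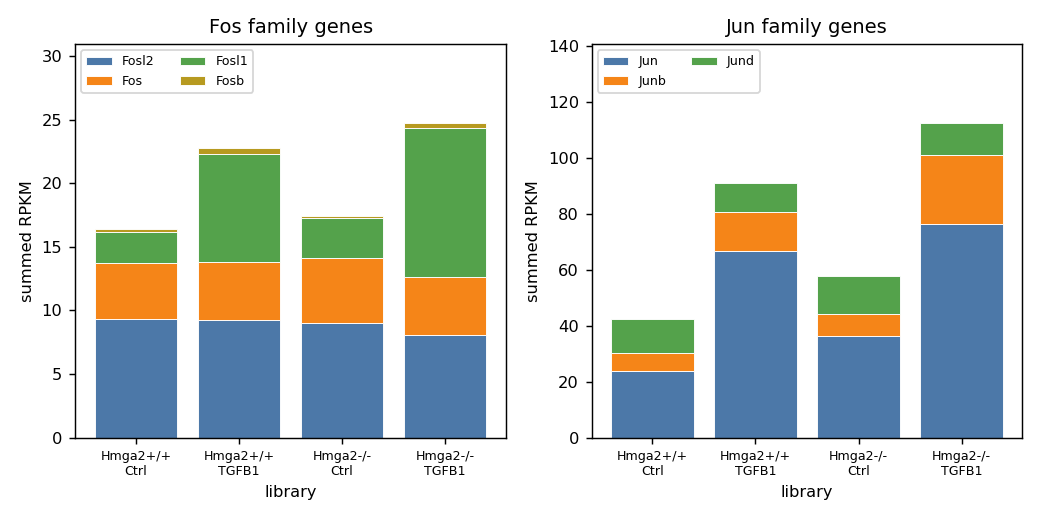
Summed RPKM of the Fos genes (left) and the Jun genes (right) in each library, stacked by gene, with 1 library per bar. *Fosl1* takes 14.5% and 17.7% of the Fos sum in the Ctrl libraries and 37.5% and 47.4% in the TGFB1 libraries, and *Jun* is the largest part of every Jun bar.

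*Jun*, which encodes the c-Jun partner of most AP-1 dimers, was the most abundant of the 7 Fos and Jun genes in every library (chr4:95049034-95052222, minus strand). Its level was 23.9 RPKM in *Hmga2*+/+ Ctrl, 66.6 in *Hmga2*+/+ TGFB1, 36.2 in *Hmga2*-/- Ctrl and 76.4 in *Hmga2*-/- TGFB1, from 4279 to 13857 reads. It rose 2.78-fold in *Hmga2*+/+ (log2 1.48, 1.43 to 1.53) and 2.11-fold in *Hmga2*-/- MEF (log2 1.08, 1.04 to 1.12). Both TGFB1 libraries were above both Ctrl libraries, and the *Hmga2*-/- library was the higher one under each treatment.

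*Junb*, a Jun protein that is a weaker activator than c-Jun (chr8:84974484-84978718, minus strand), had 6.20, 14.03, 8.04 and 24.7 RPKM in the same order of libraries. It rose 2.26-fold in *Hmga2*+/+ (log2 1.18, 1.02 to 1.33) and 3.07-fold in *Hmga2*-/- MEF (log2 1.62, 1.49 to 1.75). The table lists 3 *Junb* transcripts, and the one with the longest gene body, used here, overlaps *Prdx2* on the other strand. The transcript whose start is the RefSeq start of the promoter above had 7.65, 19.2, 10.7 and 31.9 RPKM, with log2 changes of 1.32 and 1.58. *Junb* thus had the larger change in *Hmga2*-/- MEF in both of these transcripts, with the genotypes closer in the second. The remaining one, of 484 bases, had only 8 to 25 reads per library.

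*Jund*, the Jun gene known for steady expression in resting cells (chr8:70698949-70700616, plus strand), did not reach the threshold in either genotype. Its level was 12.1, 10.4, 13.5 and 11.5 RPKM in *Hmga2*+/+ Ctrl, *Hmga2*+/+ TGFB1, *Hmga2*-/- Ctrl and *Hmga2*-/- TGFB1, with log2 changes of -0.22 (-0.31 to -0.12) and -0.23 (-0.32 to -0.14). Its transcript in the table, of 2877 bases, starts upstream of the annotated gene, at 70697739, which adds bases to the length its level is divided by. Its level may therefore be too low, and so may its shares and ranks given below. The sum of the 3 Jun genes was 42.3 RPKM in *Hmga2*+/+ Ctrl and 91.1 in *Hmga2*+/+ TGFB1, and 57.7 and 113 RPKM in the *Hmga2*-/- libraries. The share of *Jund* in it went from 28.7% to 11.5% in *Hmga2*+/+ and from 23.3% to 10.2% in *Hmga2*-/- MEF, while *Junb* held 14.7% and 15.4% in *Hmga2*+/+ and 13.9% and 21.9% in *Hmga2*-/- MEF.

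*Atf3*, a bZIP factor of the stress response that can pair with Jun proteins (chr1:191170296-191218039, minus strand), was low. It had 1.15, 2.12, 1.30 and 2.29 RPKM from 122, 231, 140 and 247 reads. The log2 changes with TGFB1 were 0.89 (0.57 to 1.22) and 0.81 (0.51 to 1.12). The genotypes lay close together under each treatment, the 1.5-fold threshold is inside both intervals, and a pseudocount of 1 RPKM took both changes below it (0.54 and 0.51).

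*Egr1*, a zinc finger factor bound to GC-rich sites (chr18:34859823-34864984, plus strand), was the most abundant of the 10 genes in *Hmga2*+/+ Ctrl. Its level was 24.8 RPKM there, 40.7 in *Hmga2*+/+ TGFB1, 21.1 in *Hmga2*-/- Ctrl and 46.3 in *Hmga2*-/- TGFB1, from 3658 to 8084 reads. The rise was 1.64-fold in *Hmga2*+/+ (log2 0.72, 0.66 to 0.77) and 2.20-fold in *Hmga2*-/- MEF (log2 1.14, 1.08 to 1.19). The *Hmga2*-/- library was the lower one in Ctrl and the higher one after TGFB1, so the order of the genotypes changed with treatment.

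*Myc*, the growth-promoting factor that binds the E-box with its partner MAX (chr15:61985391-61990374, plus strand), had a response of the same size as that of *Fosl1*. It had 5.17, 19.3, 7.08 and 25.2 RPKM in *Hmga2*+/+ Ctrl, *Hmga2*+/+ TGFB1, *Hmga2*-/- Ctrl and *Hmga2*-/- TGFB1. The rise was 3.73-fold in *Hmga2*+/+ (log2 1.90, 1.78 to 2.02) and 3.56-fold in *Hmga2*-/- MEF (log2 1.83, 1.73 to 1.94). Among the 9706 genes with at least 1 RPKM in all 4 libraries, *Myc* was the gene whose pattern lay nearest to that of *Fosl1*, at a Euclidean distance of 0.0779 between centred log2 RPKM. *Fam198b* (0.132), *Tes* (0.142), *Pvr* (0.168) and *Bmper* (0.191) came next, whereas *Junb* was at rank 81 and *Jun* at rank 122. With 4 libraries, this distance describes a pattern of 4 values.

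**Figure D3:**
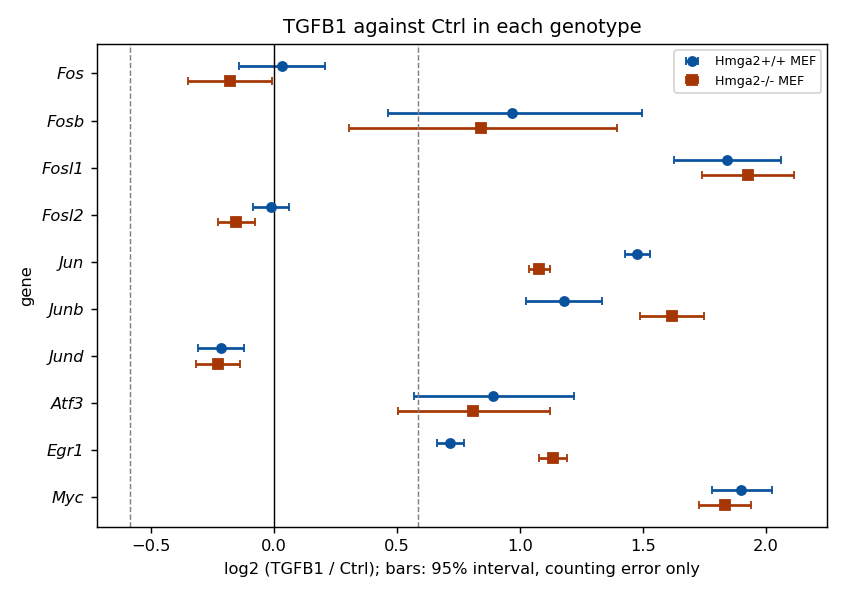
Log2 ratio of TGFB1 to Ctrl RPKM for each gene in *Hmga2*+/+ (circles) and *Hmga2*-/- (squares) MEF, with 95% intervals for counting error only and dashed lines at 1.5-fold. *Jun* is further right in *Hmga2*+/+ MEF, *Junb* and *Egr1* are further right in *Hmga2*-/- MEF, and *Fos*, *Fosl2* and *Jund* lie within the dashed lines.

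The order of the levels also changed with TGFB1. In *Hmga2*+/+ Ctrl it ran *Egr1*, *Jun*, *Jund*, *Fosl2*, *Junb*, *Myc*, *Fos*, *Fosl1*, *Atf3*, *Fosb*, where the counting intervals of *Egr1* and *Jun*, and of *Myc* and *Fos*, overlapped. In *Hmga2*+/+ TGFB1 it ran *Jun*, *Egr1*, *Myc*, *Junb*, *Jund*, *Fosl2*, *Fosl1*, *Fos*, *Atf3*, *Fosb*, with overlap only between *Fosl2* and *Fosl1*. *Myc* was at rank 6 in both Ctrl libraries and at rank 3 in both TGFB1 libraries, with the *Junb* transcript used here. The other *Junb* transcript, at 31.9 RPKM in *Hmga2*-/- TGFB1, lay above *Myc* there. In *Hmga2*-/- Ctrl, *Jun* was at rank 1 and *Egr1* at rank 2, and *Junb* overlapped with both *Fosl2* above it and *Myc* below it. In *Hmga2*-/- TGFB1, *Myc* and *Junb* overlapped at 25.2 and 24.7 RPKM, as did *Fosl1* and *Jund* at 11.7 and 11.5 RPKM. *Fosb* and *Atf3* were the lowest and the next lowest in all 4 libraries.

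Between the genotypes, 1 of the 10 genes was at least 1.5-fold higher in *Hmga2*-/- than in *Hmga2*+/+ MEF in the Ctrl libraries and 1 in the TGFB1 libraries, and 0 were lower by that much in either. Among all expressed genes, 2.28% were higher and 1.65% lower in Ctrl, and 3.03% were higher and 1.98% lower after TGFB1. In Ctrl the gene was *Jun*, 1.51-fold higher (log2 0.60, 0.54 to 0.65), an interval that includes the threshold, and the call was lost with a pseudocount of 1 RPKM. After TGFB1 it was *Junb*, 1.76-fold higher (log2 0.81, 0.71 to 0.92), which exceeded the difference of 98.6% of expressed genes. In the other *Junb* transcript described above the difference was smaller, at 1.66-fold (log2 0.73, 0.65 to 0.82). These comparisons share libraries with those of TGFB1 against Ctrl, so the *Jun* level in *Hmga2*+/+ Ctrl enters both.

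Below that threshold, *Myc* and *Fosl1* were higher in *Hmga2*-/- MEF under both treatments. The log2 difference of *Myc* was 0.45 (0.31 to 0.60) in Ctrl and 0.38 (0.31 to 0.46) after TGFB1, and that of *Fosl1* was 0.38 (0.12 to 0.63) and 0.46 (0.33 to 0.59). *Jun* differed by 0.20 (0.16 to 0.23) after TGFB1 and *Junb* by 0.37 (0.20 to 0.55) in Ctrl, both higher in *Hmga2*-/- MEF. *Jund* was slightly higher, by 0.15 (0.06 to 0.24) and 0.14 (0.04 to 0.23). *Egr1* was the gene whose intervals lay on opposite sides of 0, at -0.23 (-0.30 to -0.17) in Ctrl and 0.19 (0.14 to 0.23) after TGFB1.

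*Fos* differed by 0.21 (0.04 to 0.38) in Ctrl and -0.00 (-0.18 to 0.17) after TGFB1. *Fosl2* differed by -0.05 (-0.12 to 0.02) and -0.19 (-0.27 to -0.12), and it was the only one of the 10 whose interval lay below 0 after TGFB1. For *Atf3* (0.19, -0.17 to 0.55, and 0.11, -0.16 to 0.37) and *Fosb* (-0.10, -0.72 to 0.51, and -0.23, -0.67 to 0.21, or 0.22 in the shorter *Fosb* transcript) no difference was detectable at this depth. The median log2 difference over the 10 genes was 0.20 in Ctrl and 0.16 after TGFB1, beside -0.02 and 0.04 over all expressed genes, and 7 of the 10 were above 0 under each treatment, as were 46.3% of expressed genes in Ctrl and 58.5% after TGFB1.

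**Figure D4:**
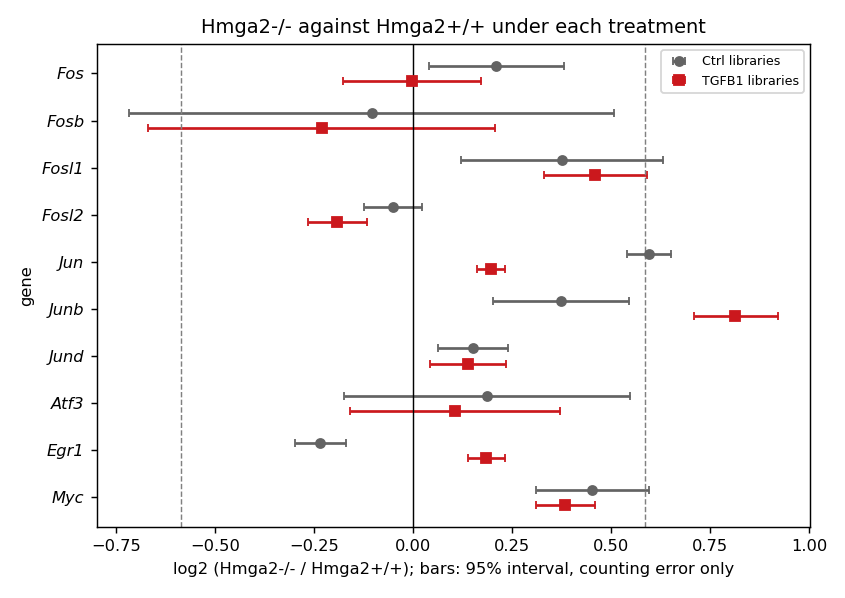
Log2 ratio of *Hmga2*-/- to *Hmga2*+/+ RPKM for each gene in the Ctrl (circles) and TGFB1 (squares) libraries, with 95% intervals for counting error only and dashed lines at 1.5-fold. *Jun* reaches the dashed line in Ctrl at 0.60 and *Junb* passes it after TGFB1 at 0.81, and *Egr1* lies on opposite sides of 0.

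The TGFB1 response itself was compared between genotypes as the log2 change in *Hmga2*-/- minus that in *Hmga2*+/+ MEF, from all 4 libraries. Its counting interval lay above 0 for 2 genes, below 0 for 2 and included 0 for 6. Over all expressed genes it lay above 0 for 25.4% and below 0 for 15.4%, so at this depth such intervals exclude 0 in many genes. *Junb* (0.44, 0.24 to 0.64) and *Egr1* (0.42, 0.34 to 0.50) had the larger response in *Hmga2*-/- MEF, above that of 94.6% and 94.1% of expressed genes. For the other *Junb* transcript described above the difference was smaller, at 0.26. *Jun* (-0.40, -0.46 to -0.33) had the smaller response in *Hmga2*-/- MEF, and only 3.61% of expressed genes had a lower value. *Fosl2* was lower by less, at -0.14 (-0.25 to -0.04).

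The difference of responses was 0.08 (-0.20 to 0.37) for *Fosl1* and -0.07 (-0.23 to 0.09) for *Myc*, the genes with the largest rises. It was -0.01 (-0.14 to 0.12) for *Jund*, -0.21 (-0.45 to 0.03) for *Fos*, -0.08 (-0.52 to 0.35) for *Atf3* and -0.13 (-0.84 to 0.59) for *Fosb*. The intervals of *Fos*, *Atf3* and *Fosb* hold the difference seen for *Jun*.

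The other genes of these pathways were taken from lists fixed by name, of which the expressed genes were counted. Of 20 expressed bZIP factors (of 24 listed) that can pair with or resemble AP-1 proteins, 5 rose in both genotypes. *Maff*, a small Maf protein, rose from 1.95 to 4.91 RPKM with HMGA2 present and from 1.77 to 5.20 RPKM without it. *Atf4*, the effector of the integrated stress response, rose from 60.5 to 125 and from 58.7 to 131 RPKM, and *Atf6*, a sensor of endoplasmic reticulum stress, from 4.47 to 10.6 and from 4.62 to 8.94 RPKM. *Atf5* rose from 22.9 to 37.6 and from 20.3 to 36.7 RPKM. The bZIP list as a whole had median log2 changes of 0.11 and 0.05, and thus did not share the median change of the 10 genes.

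Of 22 other expressed immediate-early genes (of 25 listed), 10 rose in both genotypes and 3 fell in both. These are 45.5% and 13.6% of the list, beside 9.67% and 12.6% of all expressed genes, so the share that fell was near that of all genes. The list medians were 0.51 (*Hmga2*+/+) and 0.77 (*Hmga2*-/-) on the log2 scale. *Egr2*, the paralog of *Egr1*, had 1.94 and 6.85 RPKM in the *Hmga2*+/+ Ctrl and TGFB1 libraries and 1.39 and 10.7 RPKM in the *Hmga2*-/- ones, so that its *Hmga2*-/- library was, like that of *Egr1*, the lower one in Ctrl and the higher one after TGFB1. The kinase gene *Plk2* rose from 11.7 to 48.7 and from 17.6 to 80.6 RPKM, and *Ccn1*, which encodes a secreted matrix protein, from 32.5 to 103 and from 61.5 to 207 RPKM. *Ier2* rose by 1.40 and 1.02 on the log2 scale. *Rgs2*, a regulator of G protein signalling, fell from 2.71 to 0.535 and from 2.08 to 0.222 RPKM. It counts as expressed through Ctrl libraries only, and 1 of the 10 genes that rose counts through TGFB1 libraries only. Both changes are thus partly set by the filter, and the counts, shares and medians above include them. Between the genotypes, 3 of the 22 were at least 1.5-fold higher and 2 lower in *Hmga2*-/- than in *Hmga2*+/+ MEF in Ctrl, and 7 were higher and 1 lower after TGFB1, beside 2.28% and 1.65% of expressed genes in Ctrl and 3.03% and 1.98% after TGFB1.

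Of the factors known to act upstream, 18 MAP kinase and SRF pathway genes were expressed (of 19 listed), of which 1 rose and 1 fell in both genotypes, beside 9.67% and 12.6% of all expressed genes. The one that rose was *Elk3*, a ternary complex factor that works with SRF, with 5.06 and 11.04 RPKM in *Hmga2*+/+ and 4.50 and 12.9 RPKM in *Hmga2*-/- MEF. *Mapk3*, which encodes the kinase ERK1, fell from 18.0 to 9.92 and from 16.2 to 9.44 RPKM. The EGR corepressors *Nab1* and *Nab2* did not pass the threshold, with log2 changes of -0.37 and -0.49 for *Nab1* and -0.31 and -0.32 for *Nab2*. In the MYC network 1 of 11 expressed genes (of 14 listed) rose in both genotypes and 3 fell. The genes that fell were *Mxd4* (17.2 to 5.41 and 21.2 to 7.58 RPKM), *Mxd3* (10.2 to 4.63 and 10.2 to 3.97 RPKM) and *Mxi1* (4.73 to 2.51 and 4.73 to 2.97 RPKM), all 3 of which encode proteins that compete with MYC for MAX. With a pseudocount of 1 RPKM the call of *Mxi1* in *Hmga2*-/- MEF was lost, which left 2 network genes that fell there. *Max* itself had 13.8, 15.3, 14.03 and 15.97 RPKM, and *Fbxw7*, a ubiquitin ligase subunit for MYC and Jun, rose from 4.28 to 6.45 and from 4.94 to 7.68 RPKM, a call lost in both genotypes with a pseudocount of 1 RPKM.

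Textbook targets of the factors were counted in the same way. Of 14 expressed AP-1 targets (of 17 listed), 11 rose in both genotypes and 1 fell in both, with median log2 changes of 2.65 and 2.86. *Hbegf*, a growth factor precursor, had 2.71 and 104 RPKM in the *Hmga2*+/+ Ctrl and TGFB1 libraries and 2.98 and 128 RPKM in the *Hmga2*-/- ones. *Spp1*, which encodes osteopontin, rose from 19.4 to 303 and from 13.995 to 321 RPKM, and *Ptgs2*, which encodes cyclooxygenase 2, from 3.51 to 45.6 and from 4.98 to 69.5 RPKM. The collagenase gene *Mmp13* went from 0.034 to 0.631 and from 0.086 to 1.10 RPKM. It is 1 of 3 targets, with *Il11* and *Lif*, that count as expressed through TGFB1 libraries only, so that their rise is partly set by the filter and the count and median above include them. *Ccnd1*, which encodes cyclin D1, fell from 10.6 to 6.89 and from 13.2 to 5.72 RPKM, and its call in *Hmga2*+/+ MEF was lost with a pseudocount of 1 RPKM and with median ratio scaling. Many of these genes respond to TGFB1 through other factors too.

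Of 18 expressed MYC targets, 16 rose in both genotypes and 0 fell, with median log2 changes of 1.00 and 0.94. *Tfrc*, the transferrin receptor, had 33.7 and 121 RPKM in the *Hmga2*+/+ Ctrl and TGFB1 libraries and 39.1 and 126 RPKM in the *Hmga2*-/- ones. *Srm*, the spermidine synthase gene, rose from 6.65 to 18.4 and from 6.81 to 21.0 RPKM, and *Odc1*, which encodes the first enzyme of polyamine synthesis, from 9.20 to 19.4 and from 11.2 to 29.3 RPKM. *Rrs1* and *Polr1b*, genes of ribosome production, rose by 1.45 and 1.33 on the log2 scale in *Hmga2*+/+ and by 1.40 and 1.29 in *Hmga2*-/- MEF. The targets outside the count were *Cdk4* (log2 -0.22 and -0.03) and *Apex1* (log2 0.25 and 0.44). These counts are read beside the 9.67% of expressed genes that rose and the 12.6% that fell in both genotypes, and which factor acts on a target was not measured.

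**Figure D5:**
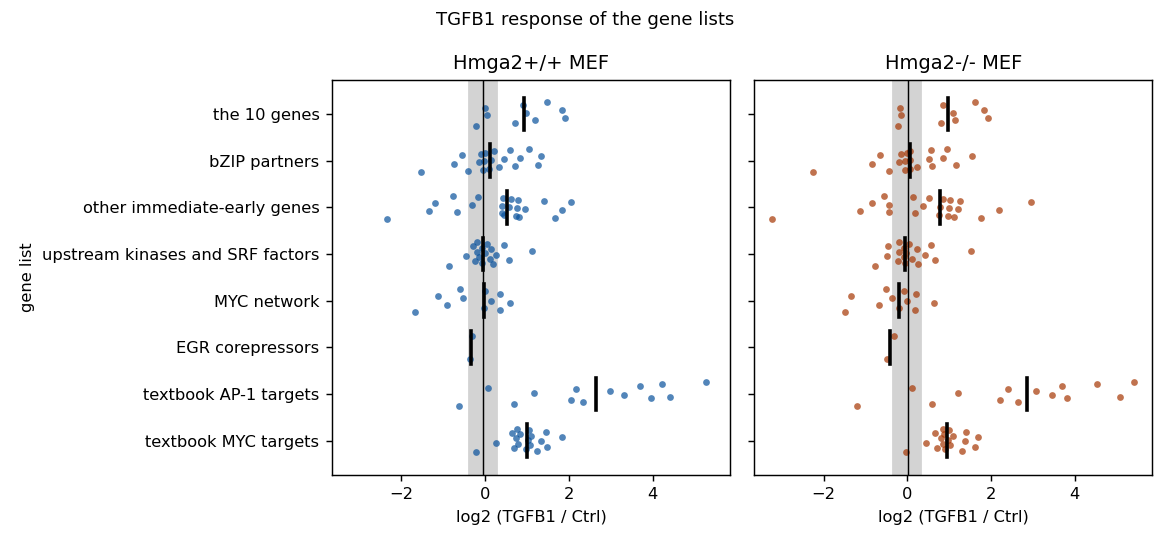
Log2 ratio of TGFB1 to Ctrl RPKM for the 10 genes and for the expressed genes of each list in *Hmga2*+/+ (left) and *Hmga2*-/- (right) MEF, with 1 point per gene and a vertical bar at each median. The grey band holds the middle of all expressed genes, from the lower to the upper quartile, and the black line is their median. The medians of the AP-1 targets (2.65 and 2.86) and the MYC targets (1.00 and 0.94) lie right of the band, and that of the kinases and SRF factors lies within it.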

How the data were processed

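Total RNA was sequenced with a stranded kit, and the 4 conditions have 1 column of values each, treated as 1 library. Per the paper's methods and the file headers, the authors mapped reads to mm10 with HISAT2 2.1.0 and counted them on the plus-strand setting with HOMER. The authors deposited RPKM for 63759 UCSC known-gene transcripts, rounded to 3 decimals. The header names exons as the counted feature and the methods name genes, and how the duplicates named in the methods were combined is not given in the sources used here. Transcript lengths were deposited too, as other values, in bases. If each gene were counted over its whole body, levels per length would differ from those given.

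Names came from GENCODE vM21 genes that covered at least 50% of a transcript's span on its strand (57708 of 63759, 90.5%), and each gene was represented by its transcript with the longest gene body. Low RPKM values were whole multiples of 1 read (100% of the 2013 to 2051 values tested per library, within 0.1 read), which gave the mapped reads and thereby the reads per gene; depending on the library, 42.2% to 43.4% of transcripts had under 10 reads. Values of 0 RPKM were set to 0.001. Ratios of libraries have exact Clopper-Pearson 95% intervals on reads, and differences of responses have normal intervals from Poisson reads. All cover counting error only.

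The 10 genes, the gene lists and the markers were chosen with earlier results of these data known. From each list, up to 5 genes past 1.5-fold in both genotypes with the largest mean change were named, except for some that are not reported here; *Max*, *Nab1*, *Nab2*, *Ccnd1*, *Il11*, *Lif*, *Cdk4* and *Apex1*, and the markers *Kdr*, *Tek*, *Krt19*, *Epcam*, *Krt18*, *Cd68*, *Myod1*, *Myog* and *Ckm*, were named after their values were seen. Python 3.11.15, numpy 2.4.6, pandas 2.3.3, scipy 1.17.1 and matplotlib 3.10.9 were used, and the steps were tested on simulated data. Alternatives changed the pseudocount, scaling, transcript choice, filter and fold threshold. ChIP-seq and human data of the study were not used here.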

Additional observations from a re-analysis of the deposited data

Results flagged for a closer look

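The TGFB1 response of *Fos* had opposite signs in the genotypes, with 0.03 on the log2 scale in *Hmga2*+/+ and -0.18 in *Hmga2*-/- MEF. The difference of -0.21 (*Hmga2*-/- minus *Hmga2*+/+) rests on 1 library per condition and was not tested. Its counting interval, -0.45 to 0.03, includes 0, and the *Hmga2*+/+ value ran from -0.00 to 0.07 over the alternatives in processing.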

How the results depend on the processing

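No paired analysis was possible because no condition has a second column of values. Of 240 recomputed log2 changes of the 10 genes, 226 stayed within their counting interval and 14 did not: 7 with a pseudocount of 1, 6 with upper quartile scaling and 1 (*Fosb*) with another transcript. Signs turned for *Fos* and *Fosl2* with TGFB1 in *Hmga2*+/+ MEF and for *Fosb* between the TGFB1 libraries, all values whose interval includes 0. The 60 recomputed differences of responses stayed within their counting intervals, but with another transcript that of *Fosb* turned from -0.13 to 0.24 and that of *Junb* went from 0.44 to 0.26. A 2-fold threshold could not be applied to them, since they have none. Adding 1 RPKM left 5 risen genes in each genotype and 0 of 10 higher in *Hmga2*-/- Ctrl. At 2-fold, 4 genes rose in *Hmga2*+/+ MEF and 5 in *Hmga2*-/- MEF, and 0 differed upward between genotypes in Ctrl and 0 after TGFB1.

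The shares of all genes moved too, and are given as higher and lower in *Hmga2*-/- MEF. Without a filter they were 7.73% and 7.47% in Ctrl and 8.61% and 7.28% after TGFB1. With at least 10 reads they were 5.48%, 5.19%, 6.89% and 5.5% in that order, and over all transcripts 7.43%, 7.69%, 8.18% and 7.74%. At 2-fold they were 0.599%, 0.421%, 0.749% and 0.599%, and TGFB1 then raised 4.79% and lowered 6.87% of genes in *Hmga2*+/+ and 5.44% and 6.61% in *Hmga2*-/- MEF. Among the lists, for which both alternatives were chosen after seeing the data, adding 1 RPKM left 3 other immediate-early genes that fell in *Hmga2*+/+ MEF, 0 MYC network genes that rose in either genotype and 0 AP-1 targets that fell in *Hmga2*+/+ MEF. Median ratio scaling gave 2 kinase and SRF genes that rose and 0 AP-1 targets that fell in *Hmga2*+/+ MEF. Fewer reads behind *Fosb* and *Atf3*, and the single library per condition, limit what can be said of them.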
